A study of Homo sapiens with 9 samples.

Results

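Expression of 10 genes that mark the epithelial or the mesenchymal state of a cell was described in SNU-398 cells that overexpress one of 2 isoforms of the homeobox transcription factor EMX1. The genes are the cadherins CDH1 and CDH2, the surface adhesion gene EPCAM, the keratins KRT8, KRT18 and KRT19, the tight junction genes CLDN1 and TJP1, and the mesenchymal genes VIM and FN1. They were chosen by name as adhesion, keratin and mesenchymal effector genes, without the transcription factors that control them, and make up 10 of the 60642 gene names in the count table. SNU-398 is a hepatocellular carcinoma (HCC) cell line. RNA-seq was made of 3 libraries each of 3 groups, and all 9 are labelled as selected with puromycin and grown in the same medium with fetal bovine serum. The vector control cells are labelled wild type, the EMX1-FL cells overexpress the full-length isoform, and the EMX1-X1 cells overexpress the isoform with an alternative last exon. EMX1 was delivered by lentivirus for stable expression, and the promoter that drives it and whether a line is 1 clone are not given in the sources used here. The study describes the data of its overexpression experiments, RNA-seq among them, as biological replicates, while the labels do not say whether the libraries of a group came from separate cultures. The p-values therefore measure only the spread between these libraries, part of which may be technical.

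Epithelial cells hold to their neighbours through adherens junctions built on E-cadherin and through tight junctions, and carry an internal scaffold of keratin filaments. Mesenchymal cells lack most of this apparatus, use N-cadherin and vimentin filaments and secrete matrix proteins such as fibronectin, and carcinoma cells can move between these states in the process known as epithelial-mesenchymal transition. In the liver, hepatocytes carry keratin 8 and keratin 18, while keratin 19 and EPCAM mark bile duct and progenitor cells.

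The libraries held 21562703 to 25197970 counted read pairs. CPM, counts per 1000000 counted read pairs with edgeR's TMM library sizes, compare a gene between libraries, and TPM, which also divide by exon length, compare genes with each other. EMX1 was at 9.34, 9.99 and 12.9 CPM in the vector control, at 251, 135 and 145 CPM with EMX1-FL and at 145, 294 and 288 CPM with EMX1-X1. It was higher in EMX1-FL cells by a log2 fold change of 4.04 (SE 0.34, adjusted p = 0.00121) and in EMX1-X1 cells by 4.5 (SE 0.35, adjusted p = 0.00047, both from the quasi-likelihood test of edgeR, with p adjusted by Benjamini-Hochberg over 18574 genes; SE stands for standard error). The isoforms are not told apart by these counts per gene. The first principal component, 39.6% of the variance, parted 5 libraries, here cluster A (EMX1-X1 1, EMX1-FL 2 and 3, and vector libraries 1 and 2), from 4 libraries, here cluster B (EMX1-X1 2 and 3, EMX1-FL 1 and vector library 3). This grouping comes from the measured counts, the labels do not give it, every group has libraries on both sides, and within-cluster values are given beside the members below. EMX1 itself was higher in cluster B by a mean log2 difference of 1.41. That value is not adjusted for group, and cluster A holds 2 vector libraries against 1 in cluster B. Within each group the cluster B libraries also had the higher EMX1 levels. EMX1-FL 1 had a level near those of EMX1-X1 2 and 3, and EMX1-X1 1 a level near those of EMX1-FL 2 and 3. Within clusters A and B EMX1 stood 3.85 and 4.27 above the vector control with EMX1-FL, and 3.89 and 4.49 with EMX1-X1.

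The labelled cell type was checked against its defining genes. Of 8 hepatocyte genes only ALB, with 10 to 53 counts per library, passed the filter on low counts, and TTR, FGB and AFP were at 0 in all 9 libraries. The summed level of the 8 genes was 0.524 to 0.948 CPM in the vector control, 1.64 to 2.68 CPM with EMX1-FL and 1.08 to 2.06 CPM with EMX1-X1. The sum was led by ALB in every library, while APOA1 had 1 to 9 counts, SERPINA1 0 to 5 and the others fewer. Both EMX1 groups thus lay above the vector control on few counts, largely of 1 gene. The part of this in the member differences was not tested. Of 4 fibroblast genes all passed the filter, led by LUM with 8110 to 15273 counts and DCN with 1157 to 2162. PDGFRA, with 35 to 82 counts, and PDGFRB, with 15 to 44, were as low as ALB. The summed level of the fibroblast genes, 450 to 651 CPM in the vector control, 416 to 713 CPM with EMX1-FL and 453 to 692 CPM with EMX1-X1, overlapped between groups. Endothelial and blood cell genes, 4 each, stayed at or under 0.693 CPM in sum. None of these 8 passed the filter, and CDH5 and CD68 were at 0 throughout, although other genes cover 85.6% of the exon bases of CD68 and pairs on shared bases are not counted. By these genes the libraries show the label's hepatocyte origin only at trace level.

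The members spanned from one of the most abundant transcripts of these cells to genes with no count, and the intermediate filament gene VIM led the order. Mean TPM in the vector control was 846 ± 132 for VIM, 95.3 ± 19.5 for TJP1, 34.3 ± 1.81 for FN1, 9.77 ± 0.793 for CDH2, 4.59 ± 1.13 for EPCAM and 1.20 ± 0.373 for CDH1 (SD, n = 3). No 2 neighbours in this part of the order overlapped between libraries, in the vector control or in either EMX1 group, where the order was the same. CLDN1, KRT8, KRT18 and KRT19 followed at or near 0, and neighbours among them overlapped in all 3 groups. VIM ranked 68 of 60642 gene names by mean TPM in the vector control and TJP1 ranked 1589, while CDH1 ranked 17924. TPM divides by all annotated exon bases of a gene, 17216 for FN1 and 11265 for TJP1 against 2430 for EPCAM, so a gene with many exon bases that these cells do not use reads low.

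**Figure D1:**
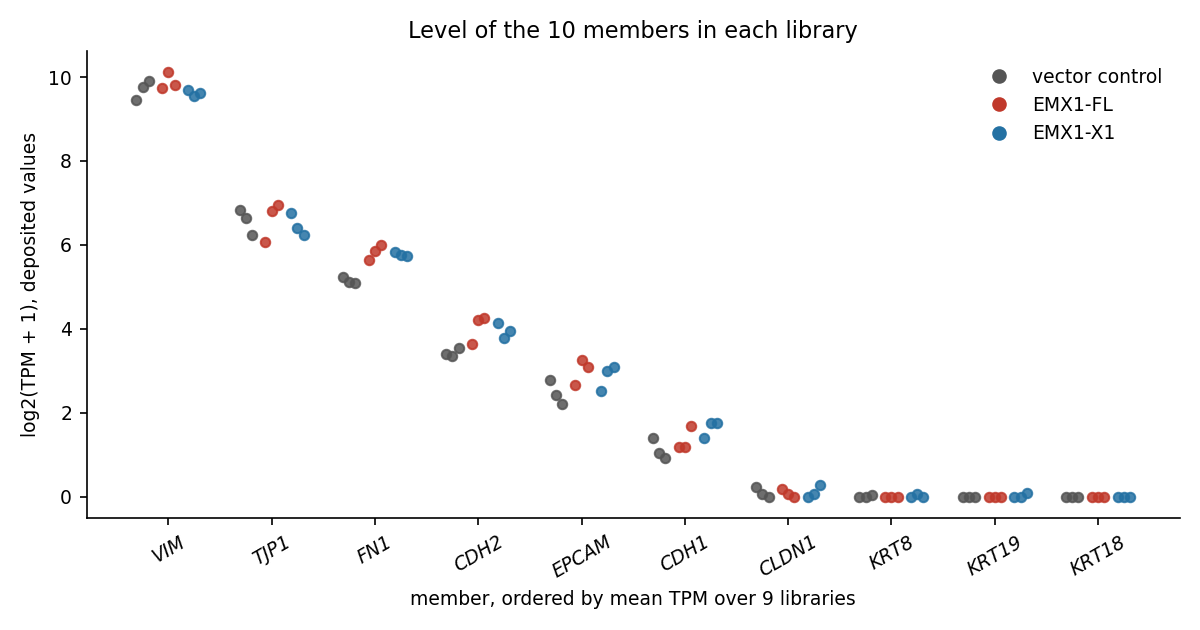
Deposited log2(TPM + 1) of the 10 members (vertical axis) in each of the 9 libraries, with members ordered by mean TPM along the horizontal axis, points for single libraries and colours for the groups. VIM stands highest, 6 members are clearly above 0, and CLDN1 and the 3 keratins lie at or near 0 in every group.

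Of the 10 members 6 passed the filter on low counts and were tested: CDH1, CDH2, EPCAM, TJP1, VIM and FN1. The study's threshold, an unadjusted p under 0.05 together with a log2 fold change of 1 or more in either direction, decided which genes are named as called, and rose and fell are used of such genes. By edgeR none of the 6 was called for EMX1-FL against vector, where 2.42% of all genes tested were, for EMX1-X1 against vector (2.50% of all genes), between EMX1-FL and EMX1-X1 cells (1.42%), or in either EMX1 isoform against the vector control (2.06%). DESeq2 and limma also called none. At an adjusted p under 0.05 edgeR again called none of them, beside 0.0700%, 0.00538%, 0% and 0.0754% of all genes in the same comparisons. At an unadjusted p under 0.05 alone, FN1 and CDH2 passed in EMX1-FL cells (2 of 6, against 5.80% of all genes), FN1, CDH2 and CDH1 in EMX1-X1 cells (3 of 6, against 8.11%), none between the isoforms (7.63% of all genes) and FN1 and CDH2 in either isoform against the vector control (2 of 6, against 6.42%). All of these were higher with EMX1. The groups did not overlap for FN1 for EMX1-FL against vector (10.5% of all genes), for FN1 and CDH2 for EMX1-X1 against vector (14.7%), for VIM between the isoforms (8.38%), and for FN1 in either isoform against the vector control (4.29%). The median log2 fold change of the 6 tested members was 0.43 in EMX1-FL cells and 0.44 in EMX1-X1 cells, beside 0.045 and 0.010 for all genes tested. The comparisons with the vector control share its 3 libraries. As the members were chosen with earlier results of these data known, these shares and medians are a description only.

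**Figure D2:**
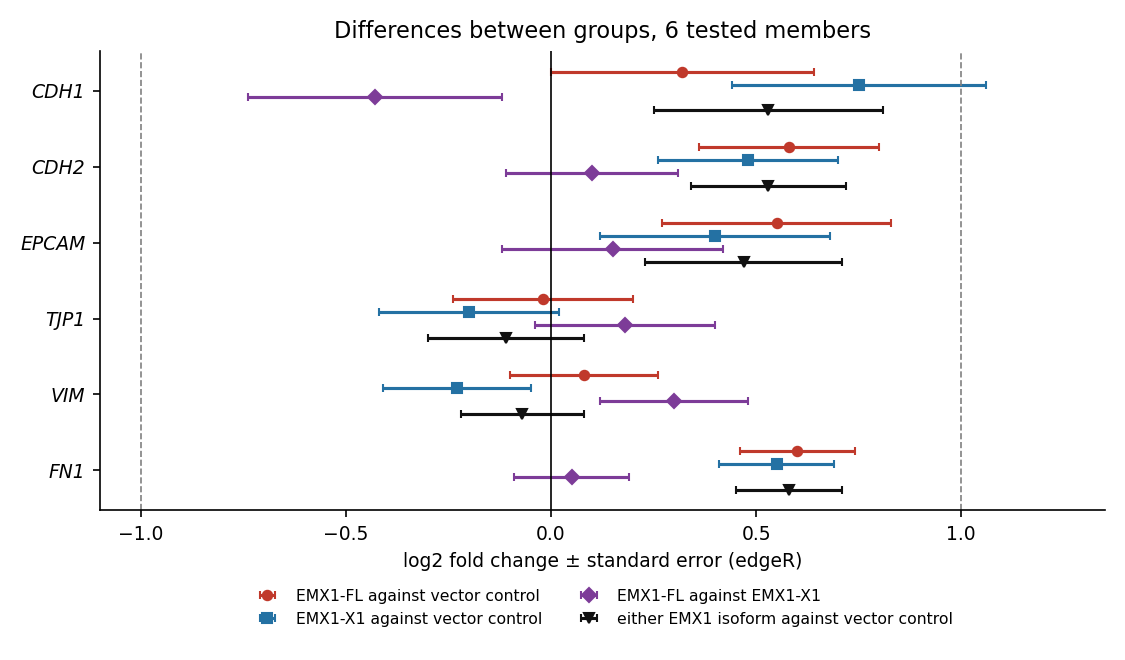
Log2 fold change (horizontal axis, with bars of 1 standard error from edgeR) of the 6 tested members in the 4 comparisons, named by marker and colour; dashed lines stand at the study's fold change threshold of 1 in either direction. No point lies beyond the dashed lines, FN1 is near 0.6 against the vector control in both EMX1 groups, and TJP1 and VIM lie within 0.30 of 0.

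CDH1 and CDH2 code for E-cadherin and N-cadherin, the transmembrane proteins that join neighbouring cells at adherens junctions, and their exchange is the classical sign of epithelial-mesenchymal transition. CDH1 lies on chromosome 16 from 68737292 to 68835541 on GRCh38. It was counted 62, 42 and 41 times in the vector control, 48, 50 and 75 times with EMX1-FL and 63, 92 and 97 times with EMX1-X1. These are low counts, and of the EMX1-X1 libraries 2 lay above every vector library while EMX1-X1 1 lay among them. The log2 fold change was 0.75 for EMX1-X1 (SE 0.31, adjusted p = 0.584 by edgeR). It was 0.32 for EMX1-FL (SE 0.32, adjusted p = 0.997 by edgeR). An exact two-sided permutation test of the log2 CPM gave p = 0.2 for EMX1-X1 and p = 0.5 for EMX1-FL, where 3 libraries against 3 cannot go below 0.1. The unadjusted p for EMX1-X1 stayed under 0.05 in 16 of 22 alternative fits. The EMX1-X1 difference was 0.24 within cluster A and 1.16 within cluster B, and the EMX1-FL difference 0.28 and 0.32. Between EMX1-FL and EMX1-X1 cells CDH1 differed by -0.43 (SE 0.31, adjusted p = 0.629 by edgeR), with 0.04 within cluster A and -0.84 within cluster B. A difference between the isoforms was thus not detected with 3 libraries against 3.

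CDH2 lies on chromosome 18 from 27950966 to 28177130. It was at 11.8, 11.9 and 15.2 CPM in the vector control, 14.6, 21.8 and 21.7 CPM with EMX1-FL and 20.6, 15.7 and 18.1 CPM with EMX1-X1. Every EMX1-X1 library lay above every vector library, while EMX1-FL 1 lay just under the highest vector library. The log2 fold change was 0.58 for EMX1-FL (SE 0.22, adjusted p = 0.700 by edgeR). The EMX1-X1 value was 0.48 (SE 0.22, adjusted p = 0.609 by edgeR). The exact two-sided permutation test gave p = 0.2 for EMX1-FL and p = 0.1 for EMX1-X1. The unadjusted p stayed under 0.05 in 18 of 22 alternative fits for EMX1-FL but in 10 for EMX1-X1. The differences stood in cluster A, where they were 0.87 (EMX1-FL) and 0.79 (EMX1-X1), and were -0.06 and 0.15 in cluster B, which holds 1 vector library. Between the isoforms CDH2 differed by 0.10 (SE 0.21, adjusted p = 0.862 by edgeR), a direction that a GC offset reversed to -0.10.

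CDH2 stood above CDH1 per exon length in all 9 libraries. The ratio of their TPM was 5.86, 8.56 and 11.8 in the vector control, 9.0, 13.6 and 8.24 with EMX1-FL and 10.3, 5.40 and 6.07 with EMX1-X1. The ranges overlapped between all groups. The ratio rests on 41 to 97 counts of CDH1 per library, and a shift of it between groups was not tested.

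EPCAM codes for a cell surface glycoprotein of simple epithelia and of hepatic progenitor cells, which mediates contact between like cells. It lies on chromosome 2 from 47345158 to 47387601 and shares no exon bases with another gene. It was at 3.81, 2.97 and 2.68 CPM in the vector control, 3.5, 5.6 and 4.76 CPM with EMX1-FL and 3.08, 4.45 and 4.93 CPM with EMX1-X1. In each EMX1 group 2 libraries lay above all vector libraries and 1 lay among them. The log2 fold change was 0.55 for EMX1-FL (SE 0.28, adjusted p = 0.922 by edgeR) and 0.40 for EMX1-X1 (SE 0.28, adjusted p = 0.699 by edgeR). Within cluster A the EMX1-X1 difference was -0.12 and within cluster B it was 0.79, while that of EMX1-FL was 0.61 and 0.38. The difference between the isoforms was 0.15 (SE 0.27, adjusted p = 0.824 by edgeR).

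KRT8 and KRT18 code for the pair of keratins that form the filaments of simple epithelia and hepatocytes, and KRT19 for a keratin of duct epithelium. KRT18, on chromosome 12 from 52948871 to 52952906, was counted in no library. KRT8, its neighbour on the opposite strand from 52897187 to 52949954, was counted once in vector control 3, 2 times in EMX1-X1 2 and in no other library. KRT19, on chromosome 17 from 41523617 to 41528308, was counted once, in EMX1-X1 3. All 9 libraries together hold 211634563 counted pairs, of which a count of 0 for KRT18 allows a level of up to 0.0142 CPM, and 0.0419, 0.0443 and 0.0414 CPM within the vector control, EMX1-FL and EMX1-X1 groups. Intervals and floors of this kind cover counting error only.

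Keratin genes have many processed copies in the genome, and a pair that fits several places equally well is not counted by default in the counting program, so a count of 0 says only that no pair was placed on the gene alone. KRT18 has 67 copies in the table, which together had 78 to 150 counts per library (median 111) over 11 to 15 copies. KRT8 has 50 copies with 246 to 341 counts in sum (median 327), of which KRT8P12 alone had 157 to 228, and the 5 copies of KRT19 had 0 to 10. In addition 17.1% of the exon bases of KRT18 and 7.60% of those of KRT8 are the same 525 bases on opposite strands. The part of multiply placed pairs in the level of 0 was not tested. Of 12 further keratins in a companion list 11 are in the table, and KRT10 and KRT81 passed the filter. The other 9 had at most 8 counts in any library.

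CLDN1 and TJP1 belong to the tight junction. CLDN1 codes for claudin 1, a membrane protein that seals the space between cells, and TJP1 for ZO-1, the scaffold protein that links such proteins to actin. CLDN1, on chromosome 3 from 190305707 to 190322446, was counted 4, 1 and 0 times in the vector control, 3, 1 and 0 times with EMX1-FL and 0, 1 and 5 times with EMX1-X1. At 15 counts in all it was not tested, and no difference between groups could be detected at this depth.

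TJP1, on chromosome 15 from 29699367 to 29968865, was by contrast well expressed. It was at 342, 312 and 256 CPM in the vector control, 204, 337 and 356 CPM with EMX1-FL and 319, 247 and 227 CPM with EMX1-X1. The groups overlapped, and in each of them the cluster B libraries were the lowest, with a mean log2 difference of -0.52 between clusters B and A. TJP1 has a GC content of 44.0%, and CDH2, with 43.8%, differed by -0.09 between the clusters. Neither difference is adjusted for group. For CDH2 the cluster B library was the highest in the vector control, while cluster B libraries were the lowest in both EMX1 groups. The part of GC content in these differences was not tested. The TJP1 log2 fold change was -0.02 for EMX1-FL (SE 0.22, adjusted p = 0.999 by edgeR) and -0.20 for EMX1-X1 (SE 0.22, adjusted p = 0.799 by edgeR). Within clusters A and B the EMX1-FL difference was 0.09 and -0.33 and the EMX1-X1 difference -0.03 and -0.12. The EMX1-FL value over all libraries changed sign under several alternatives and reached 0.19 without EMX1-FL 1.

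VIM codes for vimentin, the intermediate filament protein of mesenchymal cells. It lies on chromosome 10 from 17228241 to 17237593, and the antisense genes VIM-AS1 and AL133415.1 cover 24.3% of its exon bases, where pairs cannot be told apart without strand. VIM-AS1 had 50 to 96 counts per library and AL133415.1 none, against 22873 to 37055 for VIM. VIM was at 979, 1260 and 1530 CPM in the vector control, 1210, 1550 and 1210 CPM with EMX1-FL and 1130, 1010 and 1090 CPM with EMX1-X1. The vector libraries spanned the whole range of the EMX1-X1 libraries, and all EMX1-FL libraries lay above all EMX1-X1 libraries. The log2 fold change was 0.08 for EMX1-FL (SE 0.18, adjusted p = 0.997 by edgeR) and -0.23 for EMX1-X1 (SE 0.18, adjusted p = 0.726 by edgeR). The sign of the difference with EMX1-FL depended on the cluster, with 0.30 in A and -0.33 in B, and the EMX1-X1 difference was 0.02 and -0.54. Between the isoforms VIM differed by 0.30 (SE 0.18, adjusted p = 0.611 by edgeR), with 0.28 within cluster A and 0.21 within cluster B. An exact two-sided permutation test of the log2 CPM gave p = 0.1 for this difference, the smallest that 3 libraries against 3 allow.

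FN1 codes for fibronectin, the matrix glycoprotein to which cells attach through integrins. Of the 6 tested members it had the smallest p in every comparison with the vector control, ranking 113 of 18574 genes by p in EMX1-FL cells and 110 in EMX1-X1 cells. It lies on chromosome 2 from 215360440 to 215436073 and shares no exon bases with another gene. FN1 was at 169, 161 and 175 CPM in the vector control, 227, 262 and 277 CPM with EMX1-FL and 254, 243 and 242 CPM with EMX1-X1. All 6 libraries of the EMX1 groups lay above all 3 vector libraries, the lowest of them being EMX1-FL 1. The log2 fold change was 0.60 in EMX1-FL cells, a fold of 1.52 (SE 0.14, adjusted p = 0.216 by edgeR). The EMX1-X1 value was 0.55, a fold of 1.46 (SE 0.14, adjusted p = 0.433 by edgeR). Both isoforms together gave 0.58 (SE 0.13, adjusted p = 0.164 by edgeR), and an exact two-sided permutation test gave p = 0.0238, the smallest that 6 libraries against 3 allow.

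The FN1 difference stood in both clusters, with 0.71 and 0.38 for EMX1-FL and 0.62 and 0.47 for EMX1-X1 within clusters A and B. Between the isoforms FN1 differed by 0.05 (SE 0.14, adjusted p = 0.886 by edgeR). Over 22 alternative fits the FN1 value stayed between 0.54 and 0.69 in EMX1-FL cells and between 0.50 and 0.65 in EMX1-X1 cells, and every one of these fits had an unadjusted p under 0.05 by its own tool. The adjusted p moved across the threshold with the model. It was under 0.05 in 4 of the 22 fits for EMX1-FL (lowest with the cluster as a covariate) and in 2 for EMX1-X1, and over all 22 fits it ranged from 0.00787 to 0.889 for EMX1-FL and from 0.0303 to 1.0 for EMX1-X1. FN1 stood at 36.4, 33.4 and 33.1 TPM in the vector control, and its ratio to VIM was 0.0345 to 0.0518 there, 0.0507 to 0.0689 in EMX1-FL cells and 0.0668 to 0.0722 in EMX1-X1 cells.

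**Figure D3:**
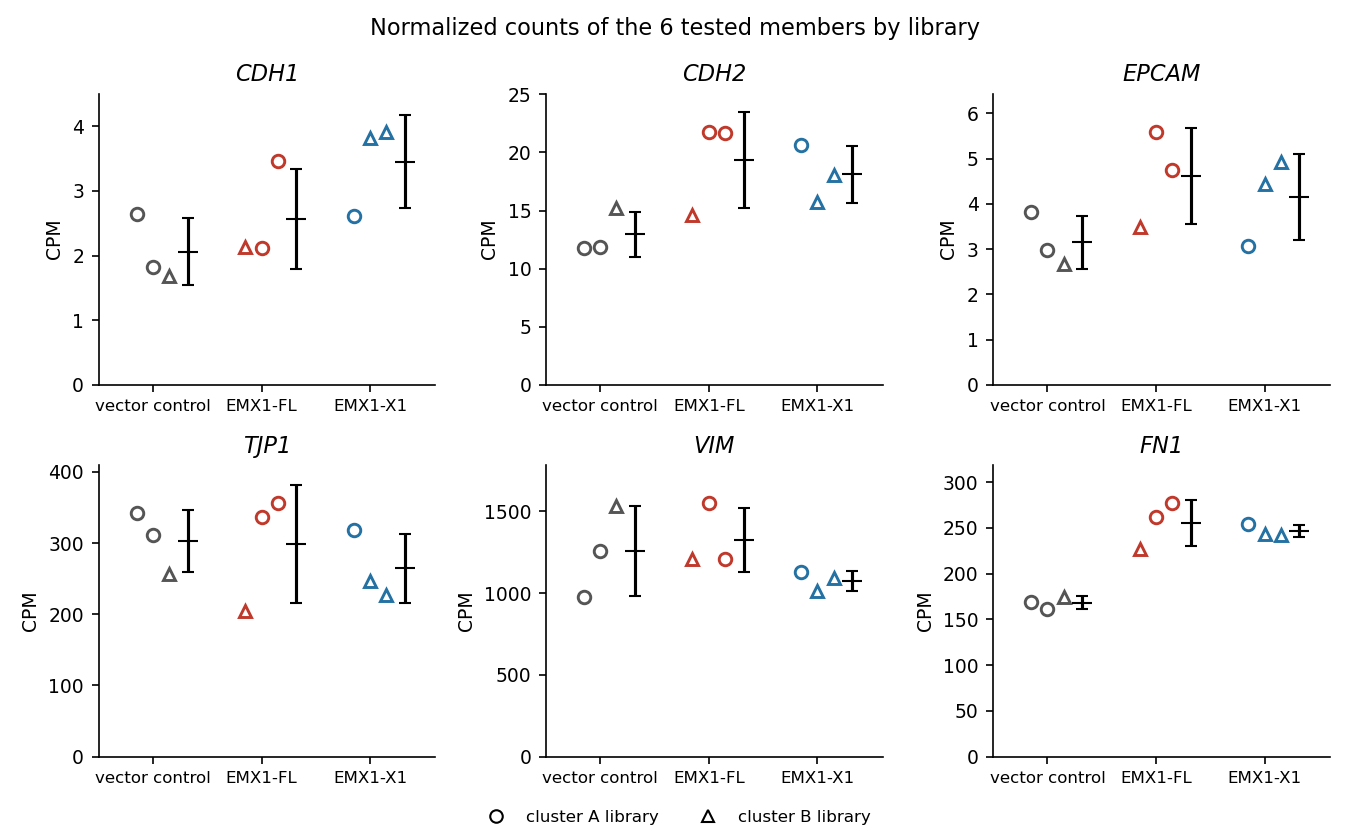
CPM (vertical axes from 0) of the 6 tested members in each library by group; circles are cluster A libraries, triangles cluster B libraries, and the black bars give the mean and SD of the 3 libraries of a group. FN1 is the member whose EMX1-FL and EMX1-X1 libraries both lie wholly above the vector control, and for TJP1 the triangles lie under the circles in every group.

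The genes most like FN1 were named by Pearson's r of log2 CPM over the 9 libraries among 18573 other tested genes, as a description. They were ADAMTS9 (r = 0.982), a secreted metalloprotease that cuts proteoglycans, PTPRK (r = 0.981), a receptor tyrosine phosphatase of cell contacts, and SDC2 (r = 0.977), the heparan sulfate proteoglycan syndecan 2. Mean levels in the vector control, EMX1-FL and EMX1-X1 groups were 2.74, 6.11 and 5.96 CPM for ADAMTS9. For PTPRK they were 13.9, 36.2 and 30.4 CPM, and for SDC2 6.90, 18.7 and 15.6 CPM. All 3 follow the step between the vector control and the EMX1 groups that FN1 shows, and the libraries share that step. Among the other members, r with FN1 was 0.893 for CDH2, 0.668 for EPCAM, 0.579 for CDH1, -0.0059 for TJP1 and -0.0202 for VIM.

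The sequence before the start of FN1, CDH2 and VIM is shown because FN1 and CDH2 had the smallest p in EMX1-FL cells and VIM was the highest member. The table of RefSeq promoters used here, on GRCh38.p14, held 10 windows for 6 of the 10 members, and CDH1, EPCAM, KRT18 and KRT19 were not analysed here. Windows of 250 bases end at the base before a start and are printed 5′ to 3′ on the strand of the gene. Capitals mark TAATTA, a core to which many homeodomain proteins bind, CAGGTG or its reverse complement CACCTG, the E-box of repressors such as SNAI1 and ZEB1, and TGACGTCA, the cAMP response element, which were searched on both strands and do not overlap here.
FN1, chr2:215436069-215436318, minus strand: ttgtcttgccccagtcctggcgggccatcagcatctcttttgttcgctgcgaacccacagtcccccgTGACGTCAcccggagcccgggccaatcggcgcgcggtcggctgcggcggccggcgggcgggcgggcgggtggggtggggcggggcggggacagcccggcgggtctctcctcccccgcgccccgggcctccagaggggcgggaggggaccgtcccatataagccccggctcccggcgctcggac
CDH2, chr18:28177131-28177380, minus strand: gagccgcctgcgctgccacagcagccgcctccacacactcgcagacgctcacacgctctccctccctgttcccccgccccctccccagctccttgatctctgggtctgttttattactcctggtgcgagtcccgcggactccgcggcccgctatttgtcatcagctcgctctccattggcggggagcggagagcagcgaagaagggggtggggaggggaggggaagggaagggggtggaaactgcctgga
VIM, chr10:17227991-17228240, plus strand: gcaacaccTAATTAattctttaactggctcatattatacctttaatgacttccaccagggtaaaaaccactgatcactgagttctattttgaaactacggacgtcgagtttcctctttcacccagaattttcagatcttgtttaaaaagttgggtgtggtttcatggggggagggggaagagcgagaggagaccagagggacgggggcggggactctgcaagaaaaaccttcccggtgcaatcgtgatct

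TAATTA stood in the VIM window with its first base at -242 from the start, and in 4.35% of 35116 RefSeq windows of the same length. TGACGTCA stood in the FN1 window at -183 and in 1.65% of all windows. CAGGTG or CACCTG stood in 17.5% of all windows and, among the members, in 1 of 4 windows of TJP1, at -88. Neither of the 2 CDH2 windows, of which the one at the start of the gene model is shown, held any of the 3 motifs. GC content was 76.4% before FN1, 66.0% before CDH2 and 46.0% before VIM, with 32, 17 and 8 CpG, beside medians of 58.0% and 11 over all windows. The other CDH2 window, chr18:28036642-28036891, had 42.0% GC and 4 CpG. These matches describe letters in these windows only.

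The neighbours of the members in the same structures were read from 6 companion lists of 86 genes, of which 54 were tested. These lists were chosen with earlier results of these data known, so shares within them, set beside all genes, are a description only. EMX1-FL cells had 7 called genes among the 54, of which 6 rose and 1 fell, and EMX1-X1 cells had 4, of which 3 rose and 1 fell, beside 2.42% and 2.50% of all genes. Over all genes 379 of 450 and 363 of 464 called genes were higher, so calls leaned to higher values in the whole table too. With 1 library left out the EMX1-X1 count went as high as 7 (without vector control 3 or without EMX1-X1 1) and as low as 2 (without EMX1-FL 1 or without EMX1-FL 2). Between the isoforms 3 genes were called, beside 1.42% of all genes, a count that was 6 without EMX1-FL 1, 8 without EMX1-X1 1, 1 without EMX1-FL 2 or without EMX1-X1 2, and 0 with the cluster as a covariate.

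Among the adherens junction partners, the catenins and nectins that anchor cadherins, all 9 were tested and median log2 fold changes were -0.04 (EMX1-FL) and 0.01 (EMX1-X1). NECTIN3, which codes for a nectin, fell in EMX1-X1 cells from 4.24 ± 1.16 to 1.54 ± 0.535 CPM (SD, n = 3), a log2 fold change of -1.46 (adjusted p = 0.482 by edgeR). Of 15 tight junction genes 9 were tested, with medians of 0.03 and 0.27. MARVELD3, a tight junction membrane protein, fell in EMX1-FL cells from 0.791 ± 0.172 to 0.322 ± 0.052 CPM (SD, n = 3), a log2 fold change of -1.28 on 6 to 26 counts per library (adjusted p = 0.739 by edgeR). Its call held in 16 of 21 fits and was lost without vector control 3, EMX1-FL 1 or EMX1-FL 3. The call was also lost with limma on log2 TPM at both pseudocounts.

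Desmosome genes, whose products rivet epithelial cells to each other and to keratin, gave 7 of 10 tested, with median log2 fold changes of 0.27 (EMX1-FL) and 0.64 (EMX1-X1). DSG2, desmoglein 2, rose in both groups. It was counted 13, 30 and 35 times in the vector control and 96, 99 and 84 times with EMX1-FL. With EMX1-X1 it had 82, 36 and 44 counts. Neither EMX1 group overlapped with the vector control, beside 10.5% (EMX1-FL) and 14.7% (EMX1-X1) of all genes tested. For EMX1-X1 this rested on 36 against 35 counts. In cluster B DSG2 stood at 1.5 and 1.78 CPM in EMX1-X1 2 and 3, beside 1.44 CPM in vector control 3. Its log2 fold change was 1.89 for EMX1-FL (SE 0.40, adjusted p = 0.156 by edgeR) and 1.01 for EMX1-X1 (SE 0.40, adjusted p = 0.575 by edgeR). The EMX1-X1 call held in 12 of 22 alternative fits, over which the value was 0.53 to 1.24. It was lost without vector control 1, EMX1-FL 1, EMX1-FL 2 or EMX1-X1 1. The call was also lost with RLE or upper-quartile scaling factors, the stricter filter, the replicate block, DESeq2 and limma on log2(TPM + 1). PKP2, plakophilin 2, rose in EMX1-FL cells from 3.77 ± 0.621 to 7.81 ± 1.66 CPM (SD, n = 3), by 1.05 (adjusted p = 0.216 by edgeR), and stood at 5.88 ± 1.22 CPM in EMX1-X1 cells. Its call held in 17 of 22 fits and was lost without vector control 1 or EMX1-FL 2. The call was also lost with a GC offset, with or without the replicate block, and with limma on log2(TPM + 1).

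Of 12 epithelial surface and splicing genes 5 were tested, with medians of 0.37 and 0.92 in the order EMX1-FL and EMX1-X1. CD24, a glycoprotein anchored at the cell surface, was counted 388, 390 and 459 times in the vector control. It was counted 827, 1251 and 1114 times with EMX1-FL and 972, 762 and 738 times with EMX1-X1. All EMX1 libraries lay above all vector libraries for CD24, beside 4.29% of all genes tested whose groups did not overlap. It rose in EMX1-FL cells by 1.42 (SE 0.20, adjusted p = 0.0372 by edgeR), the one companion gene past the adjusted threshold, and its EMX1-X1 value was 0.96 (SE 0.20, adjusted p = 0.310 by edgeR), just under the fold change threshold. Over 22 alternative fits the EMX1-FL value was 1.31 to 1.57 and passed the study's threshold in all, but its adjusted p ranged from 3.82e-07 (DESeq2) to 0.365 and was under 0.05 in 11. The adjusted call was lost with the replicate number as a block (0.335 by edgeR) and without any 1 of the vector libraries, EMX1-FL 2, EMX1-FL 3, EMX1-X1 2 or EMX1-X1 3.

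Of 28 genes of the mesenchymal cytoskeleton and matrix 22 were tested. The median log2 fold change was 0.44 in EMX1-FL cells and 0.56 in EMX1-X1 cells, with 17 and 20 of the 22 above 0, beside 56.3% and 51.1% of all genes tested. At an unadjusted p under 0.05 alone 8 and 9 of them passed, all higher, beside 5.80% and 8.11% of all genes, of which 738 of 1077 and 1105 of 1506 were higher. CCN2, a matricellular protein, rose in EMX1-FL cells from 5.88 ± 0.726 to 14.3 ± 3.54 CPM (SD, n = 3), by 1.28 (adjusted p = 0.0892 by edgeR). CCN1, its relative, rose in EMX1-X1 cells from 35.6 ± 3.72 to 71.3 ± 16.7 CPM (SD, n = 3), by 1.00 (adjusted p = 0.310 by edgeR), at the threshold itself, and the call held in 11 of 22 alternative fits, lost among others without vector control 2, EMX1-FL 1, EMX1-FL 2, EMX1-X1 2 or EMX1-X1 3. TNC, the matrix glycoprotein tenascin C, rose in both groups, by 1.37 for EMX1-FL (adjusted p = 0.252) and 1.57 for EMX1-X1 (adjusted p = 0.310 by edgeR), from 1.20 ± 0.331 CPM in the vector control (SD, n = 3). CAV1, the membrane protein caveolin 1, which was named after its value was seen, rose by 1.10 for EMX1-FL (adjusted p = 0.217 by edgeR) and had a value of 0.09 in EMX1-X1 cells. Its call was lost without vector control 2 or EMX1-FL 2.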

How the data were processed

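RNA was extracted with TRIzol and sequenced in 9 libraries. The authors deposited raw counts per gene name and a table of log2(TPM + 1). The study's methods name RSEM, the header of the count table featureCounts 2.0.1 and the submitters' processing notes featureCounts 2.0.6. By that header, pairs were counted over Ensembl 99 exons on GRCh38 with no strand option, and by default pairs that place at several sites or on several genes are not counted. From the deposited counts edgeR 4.0.16 (R 4.3.3, TMM, filterByExpr, quasi-likelihood test, group only) fitted 18574 genes over all 9 libraries, with Benjamini-Hochberg adjustment over all of them. Exact permutation tests used log2 CPM, and levels between genes used the deposited log2(TPM + 1), turned back to TPM. The scripts were tested on simulated data.

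The members and companion lists were chosen with earlier results of these data known. The genes named are the members, EMX1, up to 3 companion genes per list that passed the threshold against the vector control with the smallest p, the 3 genes most like the member with the smallest p, and genes that overlap or copy a member. Cell type marker genes were named from their own lists, KRT10 and KRT81 because they passed the filter, and ACTA2 and CAV1 after their values were seen. The alternatives were other scaling factors, no filter and a stricter filter, the replicate number as a block, the library cluster as a covariate, a GC offset, only the groups compared, limma 3.58.1 on log2 TPM with pseudocounts of 1 and 0.1, DESeq2 1.42.0, other thresholds and leaving out each library. For the companion lists the cluster covariate, GC offset and leave-one-out fits were chosen after seeing the data, as were all alternatives for single companion genes.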

Additional observations from a re-analysis of the deposited data

Results flagged for a closer look

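For 3 companion genes the EMX1-FL and EMX1-X1 groups differed by the threshold of the study in edgeR's test of the difference itself, and none passed an adjusted p of 0.05. ACTA2, smooth muscle actin, was lower in EMX1-FL than in EMX1-X1 cells by a log2 difference of -1.13 (adjusted p = 0.611 by edgeR), with -0.49 and 0.63 against the vector control. It was named after its values were seen, and other genes cover 30.8% of its exon bases. CAV1 differed by 1.01 (adjusted p = 0.611 by edgeR), with 1.10 and 0.09 against the vector control. MARVELD3 differed by -1.13 (adjusted p = 0.611 by edgeR), with -1.28 and -0.14 against the vector control, and other genes cover 18.1% of its exon bases. The call between the isoforms held in 19 of 22 alternative fits for ACTA2, in 13 of 22 for CAV1 and in 7 of 21 for MARVELD3. Over these fits the difference was -1.38 to -0.93 for ACTA2, 0.79 to 1.23 for CAV1 and -1.35 to -0.25 for MARVELD3. With the library cluster as a covariate 0 companion genes were called between the isoforms. The cause of these differences was not tested.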

How the results depend on the processing

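Of 522 alternative values for the 24 member differences, 503 kept direction and call and 19 changed sign, and none passed the study's threshold. The changes of sign were in values near 0. For CDH2 between EMX1-FL and EMX1-X1 (0.10) the GC offset gave -0.10, with or without the replicate block, and leaving out single libraries gave -0.01 to 0.28. For VIM, leaving out single libraries gave -0.08 to 0.23 in EMX1-FL cells and -0.23 to 0.08 in either isoform, where limma gave 0.04 with both pseudocounts. Between the isoforms leave-one-out values were -0.01 to 0.15 for FN1 and -0.01 to 0.33 for EPCAM. TJP1 in EMX1-FL cells gave 0.0 with library size alone, 0.04 and 0.05 with limma and -0.17 to 0.19 without single libraries, and between the isoforms -0.01 with the cluster covariate, the GC offset and the GC offset with the replicate block. With no fold change threshold 2, 3 and 2 members passed in EMX1-FL, EMX1-X1 and either isoform against the vector control. The genes called over the whole table moved more. In the order EMX1-FL, EMX1-X1, between the isoforms and either isoform they were 450, 464, 263 and 383 in edgeR, 947, 962, 686 and 1068 with no filter, 217, 214, 121 and 136 with at least 10 counts in every library, 142, 177, 107 and 87 with limma on log2(TPM + 1), 1077, 1506, 1418 and 1193 with no fold change threshold, and 13, 1, 0 and 14 with an adjusted p. By adjusted p alone other fits called 125, 48, 1 and 105 genes (DESeq2), 111, 27, 0 and 81 (cluster covariate), 95, 29, 0 and 77 (GC offset) and 1, 1, 0 and 1 (replicate block), and 490 between the isoforms without EMX1-FL 1. The GC offset with the replicate block gave 171 between the isoforms. Without single libraries the counts were 437 to 676, 311 to 906, 141 to 1108 and 361 to 470, with the highest without EMX1-FL 1 for EMX1-FL and between the isoforms and without EMX1-X1 1 for EMX1-X1. Companion gene counts were 0 between the isoforms with the cluster covariate, and 5 to 8, 2 to 7, 1 to 8 and 4 to 5 without single libraries. The causes were not tested. With the replicate number as a block 385, 407, 208 and 340 genes were called and no member call changed. Deviations of same-numbered libraries correlated at -0.522 to 0.290, over 0.1 in 3 of 9 pairs. Those 3 are the pairs whose libraries lie in the same cluster, and all pairs across clusters were negative. The correlations therefore follow the clusters and cannot tell whether libraries with the same number share a culture or batch. Low counts limit what can be said of CDH1, EPCAM and CLDN1, and for the keratins the part of multiply placed pairs beside depth was not tested.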
